A study of Bos taurus with 18 samples.

Results

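A set of 150 genes tended to be high in the same pools of bovine blastocysts and low in the same other pools. They are described here across pools and treatments. The 150 genes were selected on their counts in these pools. The counts were scaled to CPM, the count relative to the library's total, a numbered block of 40 identifiers and the 50 most abundant other genes were set aside, and 8127 of the 27270 genes listed had 10 or more counts in all 18 libraries. The first principal component of log2(CPM + 1), the axis along which the pools differed most, held 60.4% of the variance of those genes, and the members are the 150 genes with the most negative loadings once miR-34c inhibitor replicate 1 has a negative score. Pools with low scores on that axis are therefore the pools in which the members were high. This follows from the choice, so the levels of the members by pool are given as a description, with no test.

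Oocytes from small antral follicles (2 to 4 mm) of slaughterhouse ovaries were matured in vitro for 22 h and then fertilized, and blastocysts were collected at 8 dpi in pools of 10. The control group held 4 pools. The miR-34c mimics were in the IVM medium of 5 pools and the matching NC mimics in that of 3, while inhibitors of miR-34c were given to 3 pools and the NC inhibitors to another 3. The labels call the control untreated, and the methods name RNase-free water in place of the supplement. The supplements were present during IVM only, whereas the RNA was read more than a week later in whole embryos. Total counts per library ranged from 2063863 to 4071640, and all 25 pairs of pools of the same treatment differed by more than counting error.

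A blastocyst is made of an outer trophectoderm (TE), which gives rise to fetal membranes of the placenta, and an inner cell mass (ICM), which gives rise to the embryo proper and the hypoblast. The miRNAs bind matching sites in mRNAs and lower their translation or stability, and miR-34c belongs to a family known for its part in cell cycle control and in the response to p53. The files list genes by Ensembl identifier only, and none of these was paired with a gene name, so the members' functions, the markers of TE and ICM and the identity of the tissue could not be checked. In such pools a smaller number of cells of a type and less RNA per cell cannot be told apart. The members are described by their rank of loading, and the 2 of most negative loading by identifier.

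The member of rank 1, ENSBTAG00000030735, had 43.2, 5.82, 9.11 and 4.38 CPM in control replicates 1 to 4. In the miR-34c mimic pools it had 9.65, 57.7, 14.6, 7.64 and 7.75 CPM in replicates 1 to 5, and in the NC mimic pools 34.4, 27.4 and 39.6 CPM. A single pool of each of the control and miR-34c mimic groups was thus above all 3 NC mimic pools, and the other 7 pools of these groups were below them. The gene had 111, 4.68 and 46.7 CPM in miR-34c inhibitor replicates 1, 2 and 3, and 64.5, 88.3 and 76.3 CPM in the NC inhibitor pools. The mean was 15.6 ± 18.5 CPM (SD, n = 4) in the control, 19.5 ± 21.6 CPM (SD, n = 5) with miR-34c mimics, 33.8 ± 6.14 CPM (SD, n = 3) with NC mimics, 54.1 ± 53.6 CPM (SD, n = 3) with miR-34c inhibitors and 76.4 ± 11.9 CPM (SD, n = 3) with NC inhibitors. The SD exceeded the mean in the control and miR-34c mimic groups, while the NC inhibitor pools did not overlap with the control.

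The member of rank 2, ENSBTAG00000037415, had a similar pattern. It had 49.1, 6.65, 12.3 and 5.32 CPM in the control pools and 9.65, 50.8, 10.4, 6.88 and 7.27 CPM in the miR-34c mimic pools. With NC mimics it had 33.5, 28.5 and 42.4 CPM, with miR-34c inhibitors 104, 5.85 and 46.2 CPM, and with NC inhibitors 60.9, 91.9 and 72.4 CPM. The ratio of the counts of these 2 genes varied over the 18 pools by no more than counting error (chi-square of 8.59 on 17 degrees of freedom, p = 0.952). It was 1.01 over all pools and lay between 0.742 and 1.40 in single pools. Reads shared between near-identical gene copies would also give matching counts, which was not tested, so the agreement of these 2 genes is not independent evidence, although both are counted among the 150. Over all 11175 pairs of members, 229 pairs (2.05%) had a ratio that varied over the pools by no more than counting error (chi-square p above 0.05). Such a pair can still differ in level. In most pairs the ratio thus varied by more than counting error, which is harder to detect at low counts.

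**Figure D1:**
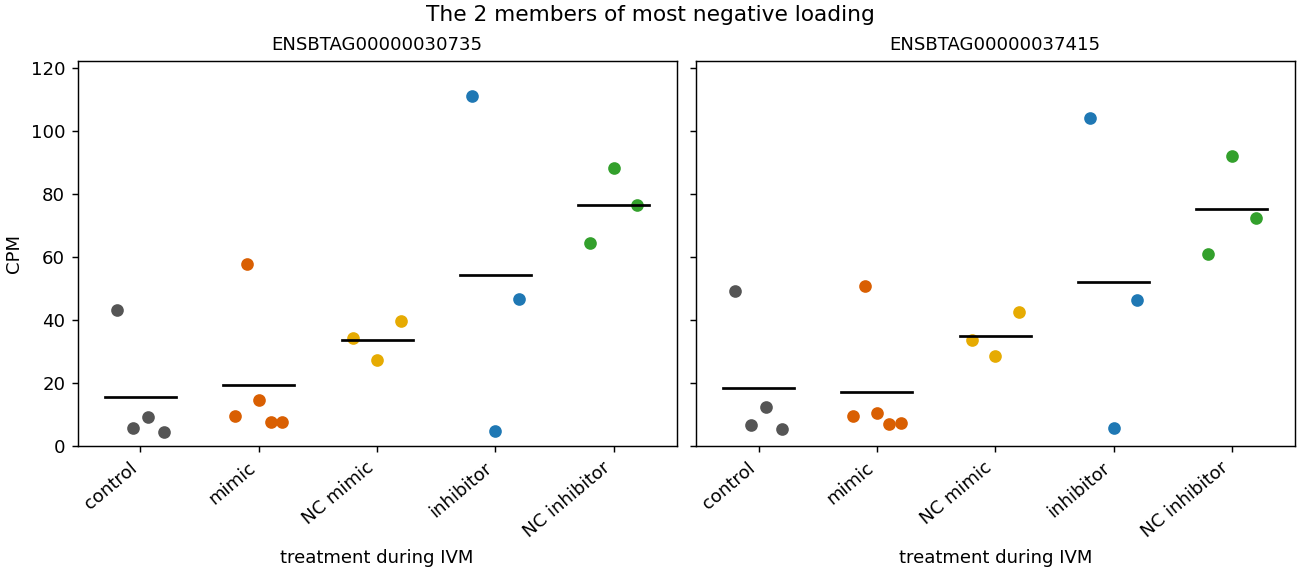
CPM of the 2 members of most negative loading (vertical axis) in each pool by treatment during IVM (horizontal axis). Points are pools and the horizontal line is the mean of the group. In both genes, control replicate 1 (43.2 and 49.1 CPM) and miR-34c mimic replicate 2 (57.7 and 50.8 CPM) stand above the other pools of their group, and the miR-34c inhibitor pools spread from under 6 to over 100 CPM.

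Over the whole set, miR-34c inhibitor replicate 1 was highest, as for the 2 leading genes, while the lowest pool was miR-34c inhibitor replicate 2 rather than control replicate 4, where these 2 genes were lowest. Each member was centred on its own mean over the 18 pools on the log2(CPM + 1) scale, and the median over the 150 members is given for each pool. The median was highest in miR-34c inhibitor replicate 1, at 1.30, and lowest in miR-34c inhibitor replicate 2, at -1.15, so that both ends of the order belong to 1 treatment. The third pool of that treatment had a median of 0.42. The NC inhibitor pools had medians of 0.89, 0.93 and 0.89, and all 150 members were above their own mean in each of these 3 pools. The NC mimic pools followed with 0.24, 0.10 and 0.47, and 118, 106 and 146 members above their own mean.

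The control and miR-34c mimic groups each held 1 pool with high members among pools with low ones. Control replicate 1 had a median of 0.61, with 141 members above their own mean, against -0.79, -0.68 and -0.99 in control replicates 2, 3 and 4, with 0 members above. Replicate 2 of the miR-34c mimics had a median of 0.83, with all 150 members above their own mean, against -1.003, -0.47, -0.72 and -0.86 in replicates 1, 3, 4 and 5. In these 4 pools 0, 12, 0 and 0 members were above. No pool of the control or miR-34c mimic groups had a median between -0.47 and 0.61, whereas the 3 NC mimic pools all did.

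**Figure D2:**
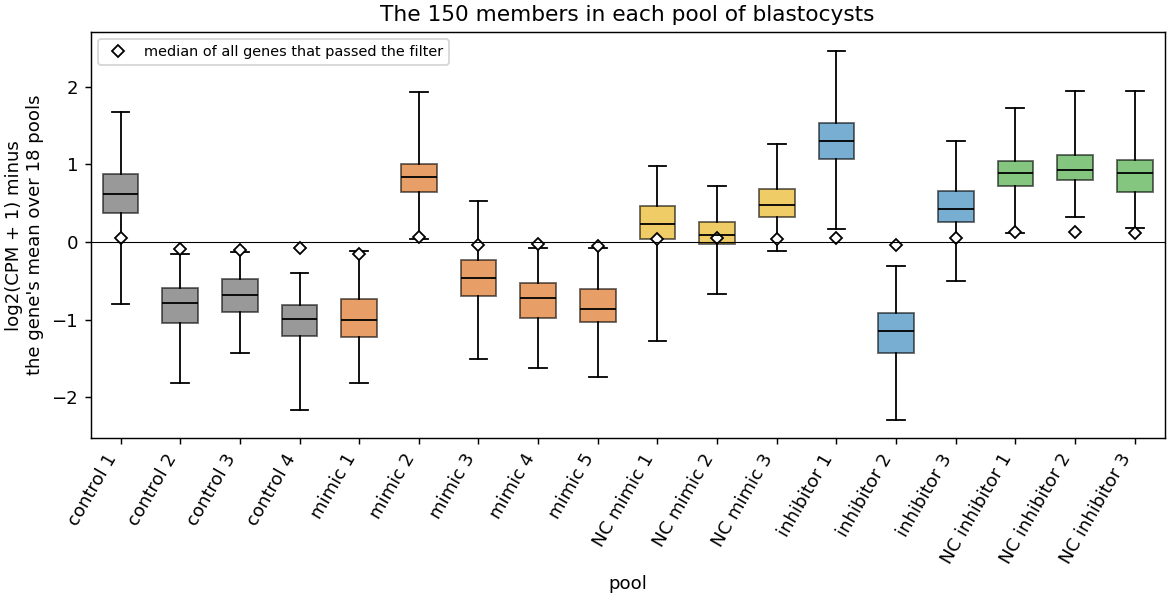
Centred log2(CPM + 1) of the 150 members (vertical axis) in each of the 18 pools (horizontal axis, coloured by treatment). Boxes span the quartiles with the median as a line, whiskers reach the lowest and highest member, and diamonds are the median of the 8127 genes that passed the filter. The 3 NC inhibitor boxes lie level between 0.65 and 1.12, while the 3 miR-34c inhibitor medians run from -1.15 to 1.30.

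The members took 0.508% of all counts in miR-34c inhibitor replicate 2 (95% Wilson interval 0.4995 to 0.5169%) and 2.96% in miR-34c inhibitor replicate 1 (2.940 to 2.984%), a 5.83-fold range that is wide against counting error, which is all that these intervals cover. The share was 0.958% ± 0.600 (SD, n = 4) in the control, with 1.85% in replicate 1 and 0.559 to 0.745% in the others. It was 1.00% ± 0.662 (SD, n = 5) with miR-34c mimics, with 2.17% in replicate 2 and 0.599 to 0.893% in the others. It was 1.41% ± 0.204 (SD, n = 3) with NC mimics, 1.70% ± 1.23 (SD, n = 3) with miR-34c inhibitors and 2.18% ± 0.0532 (SD, n = 3) with NC inhibitors. The NC inhibitor pools thus lay closest together, and the miR-34c inhibitor pools farthest apart.

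The spread between pools of 1 treatment is given beside that of all genes as a description. The median SD of a member over the pools of a treatment, on the log2 scale, was 0.75 in the control, 0.77 with miR-34c mimics, 0.27 with NC mimics, 1.23 with miR-34c inhibitors and 0.19 with NC inhibitors. The same median over the 8127 genes was 0.37, 0.36, 0.19, 0.45 and 0.155, so that the ratio was highest with miR-34c inhibitors (2.73), followed by miR-34c mimics (2.16) and the control (2.04). The choice of members favours genes that differ widely over the pools, also within treatments, so a wider spread than that of all genes follows from it. The treatment accounted for 39.8% of the variance of the pool medians, and 60.2% lay between pools of the same treatment. The median of all 8127 genes, each centred on its own mean, ran from -0.15 to 0.13 over the pools. With that median subtracted, the pool medians of the members ran from -1.11 to 1.25 in the same 2 pools, and 63.1% of their variance lay within treatments. With so few pools per treatment, labels unrelated to the values would also account for a part of the variance. That part was not subtracted from these percentages.

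The members varied together in a graded way. A single axis held 89.1% of their variance over the pools and the next 2.62%. The correlation of a member with the median of the other members over the 18 pools was between 0.81 and 0.99, with a median of 0.95, and the correlation of 2 members had a median of 0.895 and was 0.51 at the lowest. These values describe genes chosen for a shared axis and share the same libraries. The highest pool was miR-34c inhibitor replicate 1 for 100 members, an NC inhibitor pool for 29 (10, 8 and 11 in replicates 1, 2 and 3), control replicate 1 for 10, miR-34c mimic replicate 2 for 10 and NC mimic replicate 3 for 1. The lowest pool was miR-34c inhibitor replicate 2 for 56 members, miR-34c mimic replicate 1 for 40 and control replicate 4 for 25. The other 29 had their lowest value in control replicates 2 or 3 or in miR-34c mimic replicates 3, 4 or 5.

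**Figure D3:**
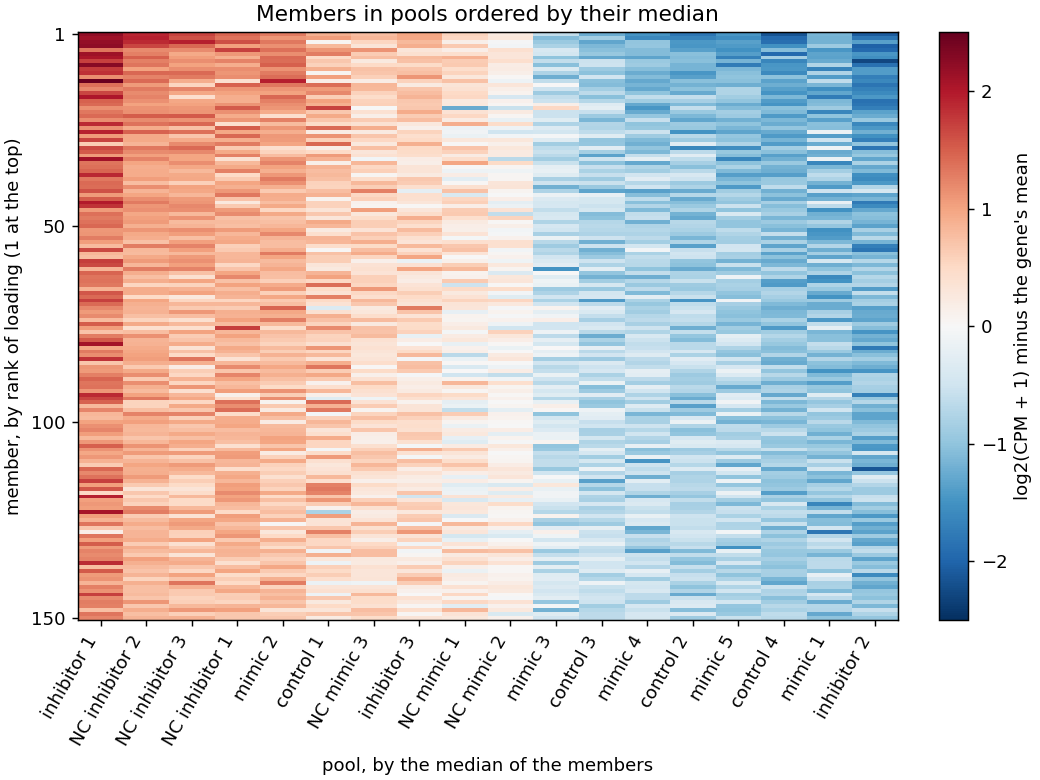
Centred log2(CPM + 1) of each member (rows, rank 1 at the top and rank 150 at the bottom) in each pool (columns, ordered by the median of the members), with the colour scale in log2 units. The columns pass from 1.30 in miR-34c inhibitor replicate 1 to -1.15 in miR-34c inhibitor replicate 2, with the 3 NC mimic pools in the middle, and the contrast is strongest in the top rows.

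The loading grows with a gene's spread over the pools, so larger folds at leading ranks follow from the ranking and are given as a description. Each of the 150 differed by over 4-fold between its highest and lowest pool, with a median of 6.93-fold and 25.4-fold at most. The median was 18.3-fold for ranks 1 to 10, 8.48-fold for ranks 11 to 50, 6.71-fold for ranks 51 to 100 and 5.79-fold for ranks 101 to 150. For the 150 genes that follow in rank, outside the set, it was 5.07-fold, and for all 8127 genes 2.67-fold. The member of rank 150 had a loading of -0.0221 and ran from 66.3 CPM in miR-34c mimic replicate 1 to 314 CPM in miR-34c inhibitor replicate 1. The next gene, just outside the set, had a loading of -0.02208 and ran from 6.88 CPM in control replicate 4 to 56.9 CPM in miR-34c inhibitor replicate 1. The limit at 150 thus crosses a continuous series of genes.

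Counting error was a small part of these differences. It accounted for 2.81% of the variance of the median member and 12.1% of that of the most affected member. The lowest count of a member in any library was 10, and 41 members had fewer than 20 counts in at least 1 library. Mean levels of the members ran from 11.3 to 839.0 CPM. Since RSEM counts were not divided by gene length here, the levels of different members are not compared.

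The members do not exhaust the genes with this pattern. Among the 7977 other genes that passed the filter, 1480 (18.6%) had a correlation with the members' median of at least 0.81, the lowest value of any member. Their median range over the pools was 1.63 on the log2 scale against 2.68 for the members, so that they followed the same pools at smaller folds. A correlation of -0.81 or lower, the opposite order of pools, was found for 1144 genes (14.3%). Of the 2881 genes that edgeR's filter kept but that had fewer than 10 counts in some library, 297 (10.3%) followed the members and 109 (3.78%) the opposite order. Among the 50 most abundant genes, 7 followed the members and 22 the opposite order. All of these correlations are over the same 18 libraries, where a higher share of some genes means a lower share of others.

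The choice of members was repeated 18 times with 1 pool left out, and the 150 genes so chosen were read in the pool that had played no part. From 128 to 148 of the members were chosen again, the fewest when replicate 1 or 2 of the miR-34c inhibitors was the pool left out. In miR-34c inhibitor replicate 1, 150 genes chosen without it had a median of 1.21 above their mean in the other 17 pools, against 0.04 for all genes that passed. In miR-34c inhibitor replicate 2 the median was -1.16 against -0.04. Control replicate 1 and miR-34c mimic replicate 2 had medians of 0.58 and 0.84 against 0.06 and 0.07. The 3 NC inhibitor pools had medians of 0.90, 0.97 and 0.885, with 150, 150 and 149 of the genes above 0, where all genes that passed had 59.9 to 61.2% above 0. NC mimic replicate 2 lay closest to the other genes, at 0.10 against 0.05. In all 18 pools the median had the same sign as with the pool included.

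**Figure D4:**
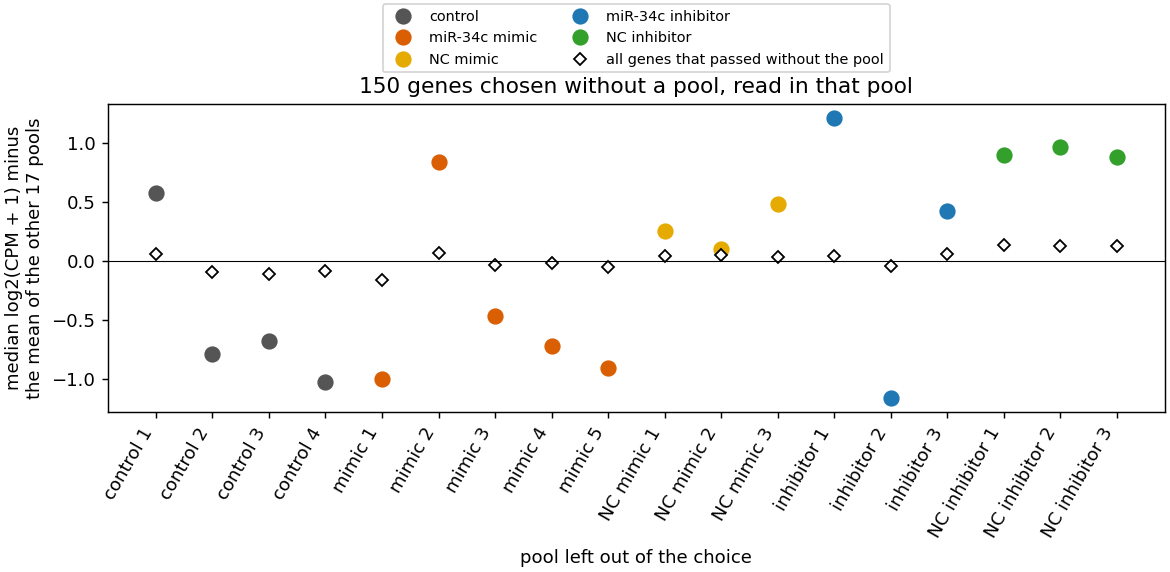
Median of 150 genes chosen without a pool, read in that pool (vertical axis, log2(CPM + 1) minus the mean of the other 17 pools), for each pool left out (horizontal axis). Filled points are coloured by treatment and diamonds are all genes that passed the filter without that pool. Control replicate 1 (0.58) and miR-34c mimic replicate 2 (0.84) lie above 0 while the other pools of both groups lie below 0.

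Some other measures of the libraries were high in the same pools as the members, but not in all of them. The identifier block that had been set aside took 13.5% of the counts in miR-34c inhibitor replicate 1 and 6.71% in miR-34c inhibitor replicate 2, the pools with the highest and lowest members. It took 12.6% in control replicate 1 against 8.51 to 9.39% in the other control pools, and 9.96 to 13.1% in the NC inhibitor pools. It took 13.2% in miR-34c mimic replicate 2, but also 12.2% in miR-34c mimic replicate 3, where the members were low. In NC mimic replicates 1 and 2, where the members' median was above 0, it took only 7.08 and 7.72%, less than in control replicates 2 to 4. The 10 most abundant genes took from 7.46% of the counts in miR-34c inhibitor replicate 2 to 14.0% in miR-34c inhibitor replicate 1. In control replicate 1 they took 13.0% against 8.92 to 9.81% in the other control pools. The number of genes detected was highest in the pool with high members within the control (15322 against 14045 to 14567) and miR-34c mimic groups (15164 against 13770 to 14701), and was 14819 to 15429 in the NC inhibitor pools. The total count was also highest in miR-34c mimic replicate 2 within its group (3900521 against 2063863 to 3107203). In control replicate 1 it was 3078322, within the range of the other control pools (2404575 to 3197174). The number of genes detected did not follow the members in the 2 pools at the ends, with 14341 in the highest and 14569 in the lowest. The total counts of these 2 pools, 2250236 and 2564936, were both below the median of 2810349.5. The part of these measures in the levels of the members was not tested.

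The treatments were compared in 8 pairs by edgeR's quasi-likelihood test, in 1 fit over all 18 pools and 11082 genes that included the 150 members. A gene was called when the p adjusted by Benjamini-Hochberg was under 0.05 and the log2 fold change was 1 or more in either direction. The number of members called was 0 in each of the 8 comparisons, as was the number of all genes called (0%). The members were chosen without the treatment labels but on the same counts and for a shared axis, so counts of members at an unadjusted p below 0.05 are set beside the share of all genes in the same direction, as a description. The 4 comparisons against the control share its pools, as do others that use the same group.

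NC inhibitors against the control gave the largest fold changes of the members. All 150 were higher with NC inhibitors, with a median log2 fold change of 1.07 and a range from 0.31 to 2.66, while the median over all genes was 0.005. At an unadjusted p below 0.05, 79 members were higher and 0 lower, where 9.64% of all genes were higher. The lowest adjusted p of a member in edgeR's quasi-likelihood test was 0.108 and the median 0.178. The log2 fold change was 2.15 for ENSBTAG00000030735 (adjusted p = 0.117) and 1.895 for ENSBTAG00000037415 (adjusted p = 0.132). In 90 members all 3 NC inhibitor pools were above all 4 control pools, which was so for 19.6% of the 8127 genes. The number called depended on control replicate 1. Without that pool 95 members were called, all of them higher, where 4.87% of all genes were called higher, and the median log2 fold change was 1.52.

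The test also mattered in this comparison. DESeq2 on all pools called 19 members higher (0.749% of all genes), limma voom with sample quality weights 143 (8.15%), and edgeR with only the 2 groups in the fit 47 (1.82%). Without control replicate 1 and miR-34c mimic replicate 2, an alternative chosen after the data had been seen, edgeR called 138 members higher (7.11% of all genes). At an unadjusted p below 0.05 the number of members higher was 145 without control replicate 1, where the share of all genes also went up, to 18.3%. It was from 37 to 44 without control replicate 2, 3 or 4 (6.19 to 7.40% of all genes). Without NC inhibitor replicate 1, 2 and 3 it was 63, 47 and 52 (7.80, 5.72 and 5.71%). With all pools of the groups it was 116 with no filter (7.42%) and 121 with only the 2 groups in the fit (13.1%). In limma voom with sample quality weights it was 150 (27.0%).

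NC mimics against the control gave a median log2 fold change of 0.54 for the members, of which 140 were higher and 10 lower with NC mimics, against -0.01 for all genes. Of these, 15 were higher at an unadjusted p below 0.05, where 4.54% of all genes were higher, and the lowest adjusted p of a member was 0.479 in edgeR's quasi-likelihood test. DESeq2 called 0 members, whereas limma voom with sample quality weights called 46 higher (1.92% of all genes) and had 124 higher at an unadjusted p below 0.05 (14.8%). In edgeR that number was 26 with no filter (3.32%) and 38 with only the 2 groups in the fit (5.28%). In 19 members the 3 NC mimic pools were above all control pools, against 8.63% of the 8127 genes. Without control replicate 1 the median was 0.93, and 55 members were higher at an unadjusted p below 0.05 (5.63% of all genes). Without control replicate 2, 3 or 4 that number was 2 or 3, below the share of all genes (2.66 to 3.61%), and without an NC mimic pool it was from 4 to 14 (2.32 to 3.65%). The median was lowest, at 0.32, without control replicate 4.

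NC mimics against NC inhibitors compares the 2 groups with narrow spread. With NC mimics 147 members were lower than with NC inhibitors, with a median log2 fold change of -0.54 against 0.01 for all genes. In 106 members all NC mimic pools were below all NC inhibitor pools, which was so for 26.6% of the 8127 genes. Over all 150 members, 5 were lower at an unadjusted p below 0.05, where 3.63% of all genes were lower, and the lowest adjusted p was 0.462 in edgeR's quasi-likelihood test. With only these 2 groups in the fit, 7 members were called lower (1.38% of all genes) and 116 were lower at an unadjusted p below 0.05 (16.3%), in a fit whose estimate of the spread came from the 2 groups with the narrowest spread. DESeq2 called 0 members and limma voom with sample quality weights 10 lower (1.93% of all genes), with 109 lower at an unadjusted p below 0.05 (18.3%). Without 1 pool of these groups that number was from 0 to 4 (1.86 to 3.71% of all genes), with 0 when NC mimic replicate 1 or 2 was left out.

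miR-34c inhibitors against NC inhibitors gave a median log2 fold change of -0.30 for the members, with 132 lower and 18 higher, against 0.03 for all genes. The number lower at an unadjusted p below 0.05 was 0, where 1.04% of all genes were lower. DESeq2 called 0, while limma voom with sample quality weights called 4 lower (0.947% of all genes) and had 65 lower at an unadjusted p below 0.05, where the share of all genes was also larger, at 10.4%. In 7 members all 3 miR-34c inhibitor pools were below all NC inhibitor pools, against 6.77% of the 8127 genes. The median was -0.93 without miR-34c inhibitor replicate 1, with 36 members lower at an unadjusted p below 0.05 (4.83% of all genes), and 0.08 without miR-34c inhibitor replicate 2. The direction therefore depended on which miR-34c inhibitor pools were used.

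miR-34c mimics against NC mimics gave a median log2 fold change of -0.46 for the members, with 140 lower and 10 higher, against 0.01 for all genes. There were 9 members lower at an unadjusted p below 0.05, where 4.54% of all genes were lower, and the lowest adjusted p of a member was 0.384 in edgeR's quasi-likelihood test. In 1 member all 5 miR-34c mimic pools were below all NC mimic pools, against 4.41% of the 8127 genes. DESeq2 called 0 members, whereas limma voom with sample quality weights called 50 lower (2.53% of all genes) and had 114 lower at an unadjusted p below 0.05, where the share of all genes was also larger, at 15.5%. In edgeR that number was 16 with no filter (3.49%) and 20 with only the 2 groups in the fit (5.22%). Without miR-34c mimic replicate 2 the median was -0.89 and 75 members were lower at an unadjusted p below 0.05 (9.01% of all genes). Without 1 of the other 7 pools that number was from 3 to 8, near the share of all genes (2.48 to 3.48%). The median was closest to 0, at -0.30, without miR-34c mimic replicate 4.

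miR-34c mimics against the control showed the smallest difference in the members, with a median log2 fold change of 0.08, 95 members higher and 55 lower. At an unadjusted p below 0.05, 0 members were higher, where 0.568% of all genes were higher. The number lower was 0, where 97 of the 11082 genes were lower. DESeq2 and limma voom with sample quality weights called 0, and limma voom had 2 members higher at an unadjusted p below 0.05 (1.43% of all genes). Both groups held 1 pool with high members. The median was 0.535 without control replicate 1 and -0.41 without miR-34c mimic replicate 2. Its value was likewise below 0 without control replicate 2 (-0.05) and without control replicate 4 (-0.12), so its sign depended on single pools. With both pools left out it was again 0.08, and 0 members reached an unadjusted p below 0.05.

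miR-34c inhibitors against the control gave a median log2 fold change of 0.75 for the members, with all 150 higher, and mimics against inhibitors gave -0.69, with all 150 lower in mimics. The groups overlapped in every member. The number of members with all inhibitor pools above all control pools was 0, against 2.98% of the 8127 genes. With all mimic pools below all inhibitor pools it was 0, against 0.972%. At an unadjusted p below 0.05, 31 members were higher in inhibitors than in the control, where 4.52% of all genes were higher, and 16 were lower in mimics than in inhibitors, where 2.87% of all genes were lower. The lowest adjusted p of a member was 0.72 and 0.859 in edgeR's quasi-likelihood test, and DESeq2 called 0 in both. In contrast, limma voom with sample quality weights called 83 members higher in inhibitors than in the control (3.53% of all genes) and 78 lower in mimics than in inhibitors (3.70%). Both differences depended on the miR-34c inhibitor pools used. Without replicate 1 of that group the medians were 0.135 and -0.04, and 0 members reached an unadjusted p below 0.05 in either (1.54 and 1.06% of all genes). Without miR-34c inhibitor replicate 2 the medians were 1.15 and -1.09, and 110 and 111 members did so (11.1 and 10.4% of all genes). Against the control the number was also 105 without control replicate 1 (8.75% of all genes), and 11, 16 and 11 without control replicates 2, 3 and 4 (2.68, 2.92 and 3.14%). For mimics against inhibitors it was 121 without miR-34c mimic replicate 2 (10.2% of all genes). It was from 3 to 5 without 1 of the other miR-34c mimic pools, near the share of all genes (1.58 to 1.89%).

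**Figure D5:**
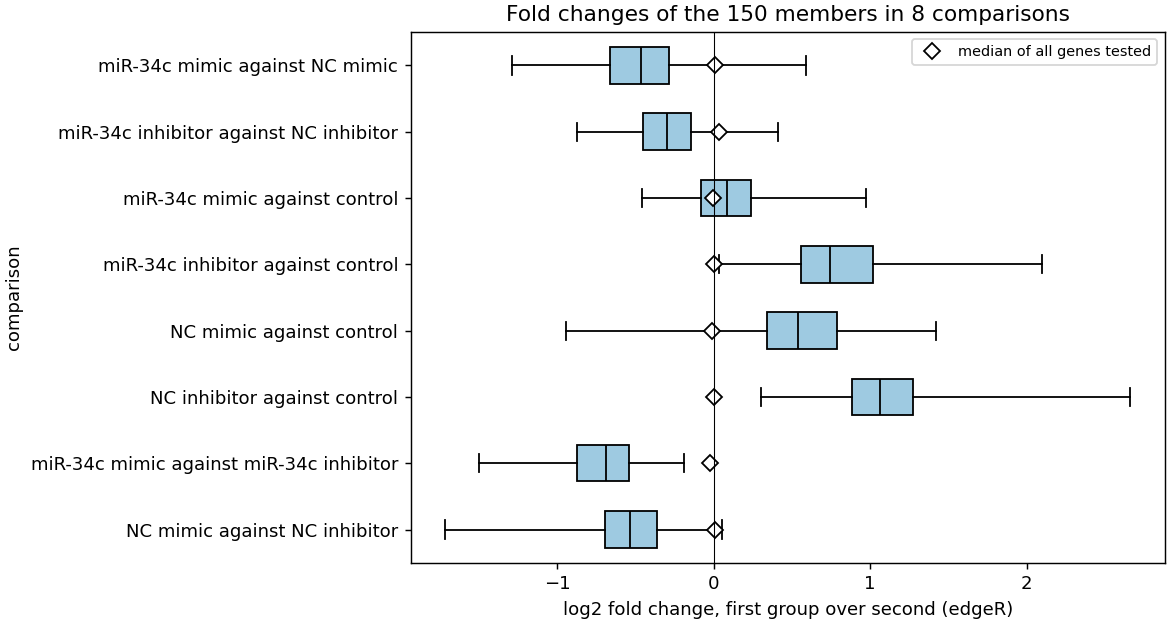
Log2 fold changes of the 150 members (horizontal axis, first group over second, edgeR fit over all 18 pools) in each of the 8 comparisons (vertical axis). Boxes span the quartiles with the median as a line, whiskers reach the lowest and highest member, and diamonds are the median of all 11082 genes tested. NC inhibitors against the control has the highest median (1.07), and miR-34c mimics against the control lies closest to 0 (0.08).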

How the data were processed

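Blastocyst mRNA of 18 pools was sequenced from the 5′ end with a modified Smart-seq3xpress protocol with an Element AVITI sequencer. The deposited values are estimated counts from RSEM 1.3.3 for each Ensembl gene, all of them whole and without normalization. The submitters' processing notes also name FastQC 0.11.9, cutadapt 3.7, STAR 2.7.10a, UMI-tools 1.1.4 and the build ARS-UCD1.2. For these mRNA counts, the annotation release and any removal of duplicate molecules are not given in the sources used here. RSEM divides reads that match several genes, so near-identical copies are uncertain. Groups and replicate numbers came from the sample titles, which do not say how pools relate to cows, bulls or days, so p-values measure the spread between these pools.

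Member values used CPM by library total and a pseudocount of 1. Comparisons used edgeR 4.0.16 (TMM, filterByExpr, treatment as the only term) in R 4.3.3, and DESeq2 1.42.0 and limma 3.58.1 as alternatives, with Python 3.11.15 for the rest. The fits and the member rule were tested on simulated data. Wilson intervals had a 95% level. The members, comparisons and alternatives were chosen with earlier results of these data known. Gene names were to be given for the 20 leading members and for members of lists of markers and pathways. Without a table that pairs identifiers with names, only the 2 leading members are named, as the rule for that case said, and the lists were not used. No sequence is printed, since none could be matched to a member.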

Additional observations from a re-analysis of the deposited data

How the results depend on the processing

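Of 130 other settings of the 8 comparisons, 118 called 0 members, among them all with median-of-ratios size factors, 10 counts in every library, no filter and the adjusted p alone. In these settings at most 3 of all genes were called higher and 2 lower in a comparison. The adjusted p alone is the main fit with another threshold. With sample quality weights in limma voom, members were called in 7 of the 8 comparisons. Against the control there were 83 with inhibitors (3.53% of all genes in that direction), 143 with NC inhibitors (8.15%) and 46 with NC mimics (1.92%). There were 50 between both mimic groups (2.53%), 4 between both inhibitor groups (0.947%), 78 between mimics and inhibitors (3.70%) and 10 between both NC groups (1.93%). For NC inhibitors against the control it was 19 with DESeq2 (0.749%), 47 with only the 2 groups in the fit (1.82%), 138 without control replicate 1 and miR-34c mimic replicate 2 (7.11%), and from 0 to 95 with 1 replicate left out, the 95 without control replicate 1 (4.87%). It was 7 for NC mimics against NC inhibitors with only the 2 groups (1.38%). The cause was not tested. The replicate block gave 0 members called in each comparison, as for all genes, but fewer members at an unadjusted p below 0.05 in 6 of the 8. Replicate 5 existed only in the miR-34c mimic group, so with the block that pool added nothing to a comparison. The members were low there (median of -0.86), and its part in the changes with mimics was not tested. In inhibitors against NC inhibitors and in mimics against the control the number of members was 0 with and without the block. The shares of all genes were 1.04 and 0.568%, the same with the block. Against the control there were 44 in place of 79 with NC inhibitors (6.26% of all genes with the block), 9 in place of 31 with inhibitors (2.67%) and 6 in place of 15 with NC mimics (3.85%). Mimics gave 0 in place of 16 against inhibitors (1.31%), with 16 members turned higher, and 2 in place of 9 against NC mimics (3.64%), with a median log2 fold change of -0.17. Between both NC groups there were 3 in place of 5 (3.20%). Deviations from group means of pools with the same replicate number had a median correlation of -0.02 over 31 pairs. It ran from -0.81 to 0.64, with 9 pairs above 0.1. Since most of the variance lies on a single axis and groups are small, these values cannot decide whether replicate numbers pair the pools. The median log2 fold change of the members kept its sign in 118 of 122 fits, which leave out the adjusted p alone. It turned to 0.08 for inhibitors against NC inhibitors without inhibitor replicate 2, and for mimics against the control to -0.05, -0.12 and -0.41 without control replicate 2, control replicate 4 and mimic replicate 2. Of the 150 members, 57 were chosen again with edgeR's filter, which admits genes with lower counts, 39 with each gene scaled to unit SD, which removes the weight of large folds, 118 to 149 under the other 6 changes of the rule, and 128 to 148 with 1 pool left out.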
